A study of Arabidopsis thaliana with 26 samples.

Results

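The libraries compared here come from *Arabidopsis* plants that lack either an RNA helicase or an exoribonuclease, both of which work with the RNA exosome on 5′ ETS fragments. They were chosen by genotype alone. The helicase set holds 4 libraries, 2 replicates of *mtr4* and 2 of *mtr4 rrp41* RRP41WT, and the exoribonuclease set holds 4 libraries, 2 replicates of *rrp6L2* and 2 of *rrp6L2 rrp41* RRP41WT. These are 8 of 26 libraries and hold 87033 of 224354 reads.

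All plants were of the Col-0 ecotype and *mtr4* and *rrp6L2* are T-DNA insertion lines. In *rrp41* RRP41WT plants, a T-DNA mutation of *RRP41* is complemented by a myc- or GFP-tagged genomic transgene that is expressed from the putative promoter of *RRP41* itself, so Exo9 is active in all 8 libraries. Library values are given in the order *mtr4* replicates 1 and 2, then *mtr4 rrp41* RRP41WT replicates 1 and 2, and in the same order for *rrp6L2*. The 4 Col-0 background libraries, 2 of Col-0 and 2 of *rrp41* RRP41WT, give the level with both enzymes present. The 2 replicates each of *mtr4 rrp41* RRP41Pi-Cat- and *rrp6L2 rrp41* RRP41Pi-Cat-, in which both the phosphate and the catalytic site of RRP41 are mutated, give the level with inactive Exo9. RNA came from rosette leaves, and the replicates are biological, from plants that were not grown at the same time. The methods state that these plants were cultured for 6 weeks, and the light regime differs between the labels and the methods. The amplicon covers only the 5′ ETS, so it holds no reads of *MTR4*, *RRP6L2* or leaf genes by which the genotype or the tissue could be checked.

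The 5′ ETS is the spacer ahead of 18S rRNA in the rRNA precursor. Cleavages at its P and P′ sites release the P-P′ fragment, which the exosome then degrades from its 3′ end, and the intermediates that share the P end are called P-P1. MTR4 is a DExH-box helicase that unwinds RNA for the exosome in the nucleolus, and RRP6L2 is a nucleolar relative of yeast Rrp6, a hydrolytic 3′–5′ exoribonuclease. In yeast, Mtr4 is part of the TRAMP complex, whose poly(A) polymerase adds short A tails to exosome substrates. In plants the RRP41 subunit gives the core, Exo9, a phosphorolytic activity of its own. The comparison asks which 3′ ends and which added nucleotides distinguish the loss of the helicase from the loss of the exoribonuclease.

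3′ ends are named by the length of the fragment in nt, so the number after the P counts nucleotides from the start of P-P′. The stretch from P140 to P200 lies at chr3:14197254-14197314 on the plus strand of TAIR10.1, with no annotated feature over it and with 362 nt between it and the 18S rRNA gene AT3G41768. Exact copies of these 61 nt also lie on chromosome 2, from 3283 to 3343, again 362 nt before an 18S rRNA gene, AT2G01010, and from 7191300 to 7191360, inside an annotated mRNA exon. The longer stretch from P1 to P200 matched once, at chr3:14197115-14197314, and the reads were not assigned to copies. The stretch is shown first with the 12 ends that were more frequent in the *mtr4* background in capitals, and then with the 9 ends that were less frequent, since the position of these ends is the main result.
ends higher in mtr4: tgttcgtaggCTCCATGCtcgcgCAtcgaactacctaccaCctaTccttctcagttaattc
ends lower in mtr4: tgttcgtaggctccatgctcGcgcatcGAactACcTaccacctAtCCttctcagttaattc
The next pair shows in capitals the ends of which a larger or a smaller share of the reads carried a tail of 2 to 30 nt in the *mtr4* background, among ends with at least 10 reads in each of the 8 libraries. The capitals at P167 and P170 rest on very few tailed reads.
ends tailed more often in mtr4: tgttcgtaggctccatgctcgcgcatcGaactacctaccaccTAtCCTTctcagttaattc
ends tailed less often in mtr4: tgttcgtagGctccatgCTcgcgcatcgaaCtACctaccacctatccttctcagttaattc

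The *mtr4* background libraries held 6171 to 16513 reads and the *rrp6L2* background libraries 7371 to 23152. The share that 3 reads make up, taken as the floor of detection, ranged from 0.0130% to 0.0486% over the 8 libraries. Ends from P140 to P200 made up 86.0% to 91.0% of the reads in the *mtr4* background and 92.3% to 93.9% in the *rrp6L2* background. Replicates of each genotype differed by more than sampling noise. All values are shares of the reads of a library, so a higher share at an end is not a larger amount of that fragment, and a gain at some ends lowers the others.

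Loss of the helicase and loss of the exoribonuclease gave different 3′ end profiles. As a distance between profiles, the percentage of the reads from P140 to P200 was computed that would have to change position to make them equal. It was 20.2 between the mean profiles of both backgrounds (exact permutation test, two-sided, p = 0.0286, the smallest that 70 relabelings allow). It was 25.2 between the lines with endogenous RRP41 and 18.8 between the lines with RRP41WT. From the Col-0 background, the *mtr4* background lay 37.0 away and the *rrp6L2* background 24.6. Single libraries of the *mtr4* background differed from each other by 7.48 to 17.1 and those of the *rrp6L2* background by 8.37 to 20.5, while pairs across the backgrounds differed by 16.1 to 28.1.

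**Figure D1:**
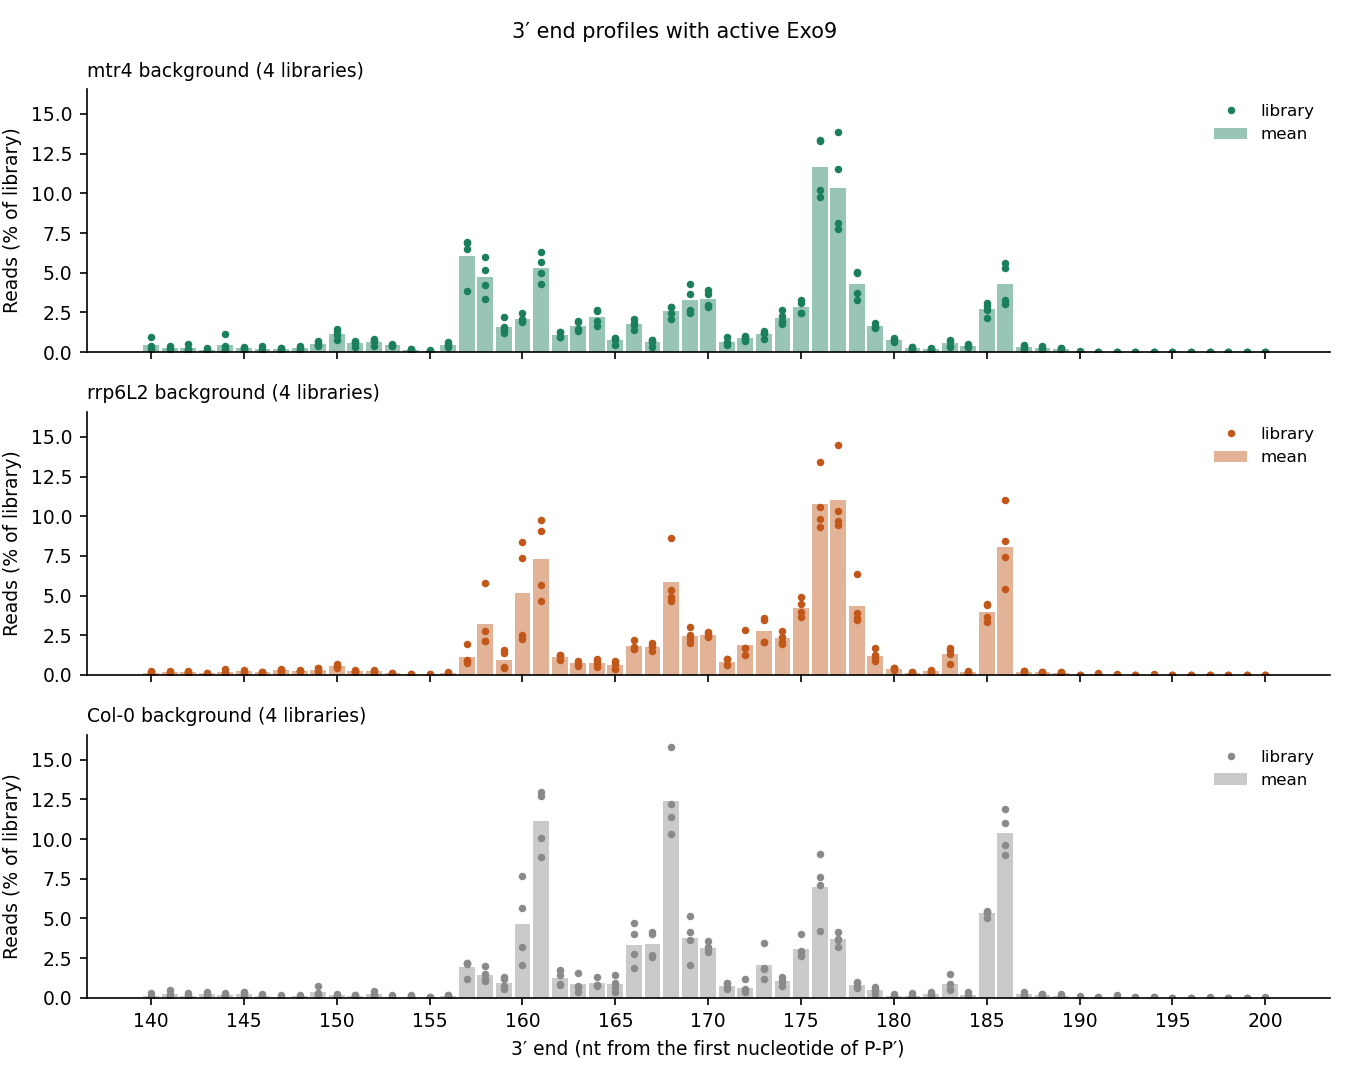
3′ end profiles of the mtr4, rrp6L2 and Col-0 backgrounds with active Exo9, with the 3′ end in nt on the x axis and the percentage of the reads of a library on the y axis. Bars are means of 4 libraries and points are single libraries. P157 stands out in the mtr4 background (mean 6.04%), while P168 is higher in the rrp6L2 background (5.88%) than in the mtr4 background (2.56%) and highest in Col-0 (12.4%).

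Of the 61 ends from P140 to P200, 12 were higher and 9 lower in the *mtr4* background (limma on log2 of the percentage plus 0.1, Benjamini-Hochberg adjusted p under 0.05), which is 19.7% and 14.8% of the ends tested. At 19 ends, 31.1% of those tested, the 4 libraries of both backgrounds did not overlap, and 17 of these 19 passed the limma test. An unadjusted p under 0.05 was found at 26 ends by limma and at 19 by the exact permutation test of each end, which left none after adjustment (smallest adjusted p 0.0917), since 4 against 4 libraries cannot reach a lower raw p than 0.0286. The higher ends lay in 2 short runs and at 2 single positions: P150 to P157, P163 and P164, P180, and P184. The lower ends were P160, P167, P168, P172, P173, P175, P183, P185 and P186. At 20 of these 21 ends the sign was the same in all 4 differences between matched lines and replicate numbers. This count adds no support, since the ends were called on the same libraries. At the 17 called ends without overlap the sign was fixed in advance.

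**Figure D2:**
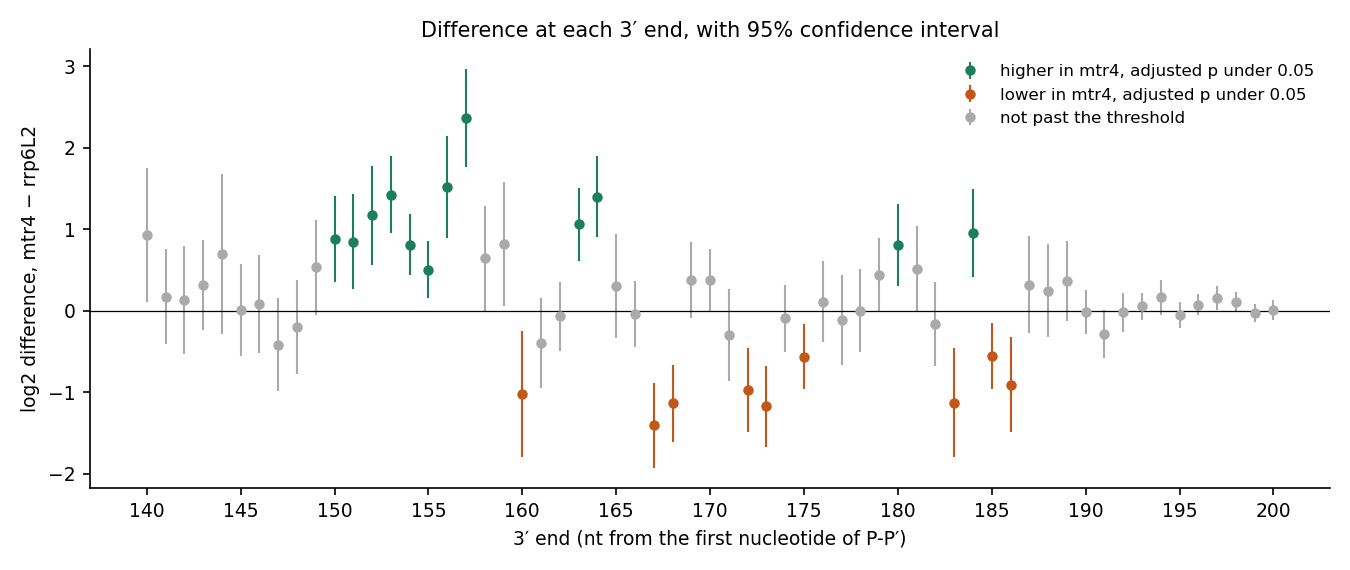
Difference between the mtr4 and the rrp6L2 background at each 3′ end, with the 3′ end in nt on the x axis and the limma log2 difference on the y axis. Points are estimates from 4 against 4 libraries and bars their 95% confidence intervals. The run of ends from P150 to P157 lies above 0 and P167, P168, P172 and P173 lie below it.

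A run of short fragments was more frequent in the helicase mutant. All 8 ends from P150 to P157 were higher in the *mtr4* background. None of the 10 shorter ends from P140 to P149 passed the threshold in either direction, and P147 and P148 had lower means in the *mtr4* background, 0.203% against 0.299% and 0.242% against 0.276%. P157, which lies 4 nt inside the fragment P161, held 6.86%, 6.96%, 3.84% and 6.48% of all *mtr4* background reads and 0.963%, 0.875%, 1.97% and 0.755% of *rrp6L2* background reads. The lowest *mtr4* background library lay above the highest of the *rrp6L2* background. The means were 6.04% ± 1.48 (SD, n = 4) and 1.14% ± 0.557, a 5.30-fold difference. The Col-0 background had 1.92% ± 0.511, a value that depends on the base change described below. On the log2 scale the difference was 2.36 (SE 0.28, 95% CI 1.76 to 2.96, limma adjusted p = 4.85e-05). With inactive Exo9 the P157 share was 0.677% in *mtr4 rrp41* RRP41Pi-Cat- and 0.369% in *rrp6L2 rrp41* RRP41Pi-Cat- (means of 2 libraries).

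P156, the end next to it, had 0.498%, 0.640%, 0.345% and 0.421% of the reads in the *mtr4* background against 0.122%, 0.0443%, 0.216% and 0.0512% (log2 difference 1.52, limma adjusted p = 0.00141). P153 had 0.389%, 0.515%, 0.412% and 0.438% against 0.0814%, 0.0997%, 0.134% and 0.0895% (log2 difference 1.42, limma adjusted p = 0.000485). At both ends the *mtr4* and *rrp6L2* backgrounds did not overlap. P150 was the most frequent end of the run before P157, with 1.29%, 1.11%, 1.45% and 0.745% against 0.705%, 0.443%, 0.549% and 0.576% (limma adjusted p = 0.0129). P152 had a mean of 0.659% ± 0.180 against 0.235% ± 0.0703 and P151 of 0.569% ± 0.160 against 0.265% ± 0.0547, without overlap at either end. P154 with 0.164% against 0.0502% and P155 with 0.0832% against 0.0318% are named after their values were seen, and of these only P155 overlapped. Without *mtr4 rrp41* RRP41WT replicate 1 the P150 difference no longer passed the threshold (limma adjusted p = 0.0510), and P151 lost its call without any of 5 single libraries (adjusted p up to 0.0763).

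Whether an end before P157 can be recorded depends on a base change in the reads. T137C, with positions numbered as for the ends, was carried by 35.2% ± 10.9 (SD, n = 4) of the *mtr4* background reads that end from P157 to P200 and by 38.1% ± 4.41 of the *rrp6L2* background reads (exact permutation test, p = 0.571). The Col-0 background had 64.9% ± 12.3. Because the last 20 nt before a tail have to match the reference, a read with this change is recorded only if it ends at P157 or later. Among reads with the reference base, the log2 difference was 0.91 at P150, 1.27 at P152 and 1.75 at P156, with P153 between the last pair, and all 4 ends passed the threshold (limma adjusted p from 0.00381 to 0.0109). P157 made up 3.36% ± 1.04 against 0.751% ± 0.382 of the reads with the reference base, and 15% ± 3.76 against 2.10% ± 0.864 of the reads with T137C that end from P157 to P200. In both kinds of reads the *mtr4* and *rrp6L2* background libraries did not overlap at P157. The Col-0 background had 0.771% ± 0.212 among reads with the reference base, close to *rrp6L2*, and 3.01% ± 0.804 among those with T137C. Since the Col-0 background carries T137C more often, its P157 share of all reads is not comparable with the mutants. Before P157 its shares can be set beside them only among reads with the reference base. There P153 made up 0.594% to 0.946% in the *mtr4*, 0.131% to 0.244% in the *rrp6L2* and 0.0206% to 0.421% in the Col-0 background. P156 made up 0.498% to 1.04%, 0.0786% to 0.393% and 0% to 0.666%, so that the *mtr4* and Col-0 backgrounds overlapped at P156 and not at P153. The Col-0 shares rest on only 8 reads at P153 and 30 at P156 over 4 libraries. In these libraries 3 reads make up 0.0256% to 0.184% of all reads, so the gap at P153 is limited by depth.

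P163 and P164, between the fragments P161 and P168, were also more frequent without the helicase. P164 had 1.62%, 1.98%, 2.57% and 2.64% of the reads in the *mtr4* background and 0.895%, 0.698%, 0.531% and 0.985% in the *rrp6L2* background, a log2 difference of 1.40 (SE 0.23, limma adjusted p = 0.000657). P163 had 1.31%, 1.46%, 1.87% and 1.94% against 0.719%, 0.864%, 0.592% and 0.767%, a log2 difference of 1.06 (limma adjusted p = 0.00141). Neither end overlapped, and the *rrp6L2* means of 0.777% and 0.736% were close to the Col-0 means of 0.915% and 0.857%. With inactive Exo9 both ends had higher means in both mutants, with 4.90% in *mtr4 rrp41* RRP41Pi-Cat- against 2.16% in *rrp6L2 rrp41* RRP41Pi-Cat- at P164 and 4.14% against 1.05% at P163. Further 3′, P180 had 0.607%, 0.789%, 0.818% and 0.875% against 0.312%, 0.410%, 0.449% and 0.422%, and P184 had 0.352%, 0.320%, 0.521% and 0.389% against 0.122%, 0.233%, 0.108% and 0.166%. These 2 ends did not overlap either (limma adjusted p = 0.0165 and 0.00993). P180 lost its call without *mtr4 rrp41* RRP41WT replicate 1 or *rrp6L2* replicate 1 (limma adjusted p = 0.0510 and 0.0540), and among reads without added nucleotides the log2 differences of P180 and P184 were 0.33 and 0.16 and passed no threshold. P184 also lost its call in reads with T137C (log2 difference 0.16, limma adjusted p = 0.841). With reads 1 nt either side added, P184 had a log2 difference of −0.57, since its neighbours are lower in the *mtr4* background.

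The ends that were less frequent without the helicase include P168, a main fragment of Col-0, and P167. P168 had 2.11%, 2.86%, 2.44% and 2.84% of the reads in the *mtr4* background and 4.94%, 8.62%, 5.33% and 4.64% in the *rrp6L2* background. No *mtr4* background library reached the lowest of the *rrp6L2* background, and both lay below the Col-0 background with 12.4% ± 2.38 (SD, n = 4). The log2 difference was −1.13 (SE 0.22, limma adjusted p = 0.00141). P167 had 0.340%, 0.663%, 0.751% and 0.778% against 1.80%, 2.02%, 1.82% and 1.5%, a log2 difference of −1.41 (SE 0.24, limma adjusted p = 0.000739), with 3.37% ± 0.841 in the Col-0 background. P169 and P170 did not follow them. P169 had a mean of 3.27% against 2.45% (limma adjusted p = 0.197), and P170 had 2.87%, 3.90%, 3.0% and 3.66% against 2.58%, 2.68%, 2.42% and 2.46%, higher in every *mtr4* background library but not past the adjusted threshold (limma adjusted p = 0.116).

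The class from P171 to P175 had 7.06%, 7.2%, 9.02% and 7.41% of *mtr4* background reads against 9.66%, 13.4%, 10.3% and 14.6% of *rrp6L2* background reads, without overlap. Within this class, P173 had 0.850%, 1.34%, 1.22% and 1.23% against 2.06%, 3.58%, 2.08% and 3.48% (log2 difference −1.17, SE 0.23, limma adjusted p = 0.00141). P172 had 0.729%, 0.835%, 0.920% and 0.988% against 1.25%, 1.69%, 1.68% and 2.85% (log2 difference −0.97, limma adjusted p = 0.0064). Replicate 2 libraries of the *rrp6L2* background held the higher P173 shares, and even its lower ones lay above every *mtr4* background library. P175 had 3.11%, 2.49%, 3.3% and 2.45% against 3.62%, 4.45%, 3.94% and 4.89% (log2 difference −0.56, limma adjusted p = 0.0317). Among reads without added nucleotides the P172 difference was −0.33 on the log2 scale and was no longer past the threshold, and the P175 call was lost without any of the 4 replicate 2 libraries (limma adjusted p up to 0.110).

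P185 and P186, the latter another main fragment of Col-0, were lower in the *mtr4* background as well. P186 had 5.62%, 3.01%, 5.29% and 3.26% of the reads in the *mtr4* background and 8.44%, 11%, 5.44% and 7.41% in the *rrp6L2* background, against 10.4% ± 1.31 (SD, n = 4) in the Col-0 background. The log2 difference was −0.90 (SE 0.27, limma adjusted p = 0.0179), and the groups overlapped between 5.62% in *mtr4* replicate 1 and 5.44% in *rrp6L2 rrp41* RRP41WT replicate 1. P185 had 2.91%, 2.13%, 3.08% and 2.63% against 4.49%, 4.43%, 3.65% and 3.36%, without overlap (log2 difference −0.55, limma adjusted p = 0.0350). P183, named after its values were seen, had 0.328%, 0.40%, 0.709% and 0.745% against 1.68%, 1.56%, 1.34% and 0.678% (limma adjusted p = 0.0129). Only *rrp6L2 rrp41* RRP41WT replicate 2 fell into the *mtr4* range at P183. The P186 call was lost without *mtr4* replicate 2, *mtr4 rrp41* RRP41WT replicate 2 or *rrp6L2* replicate 2 (limma adjusted p up to 0.0748), and the P185 call without any of 4 single libraries (adjusted p up to 0.148). The P186 call was also lost among reads with the reference base (log2 difference −0.77, limma adjusted p = 0.0802) and the P185 call among reads with T137C (log2 difference −0.55, limma adjusted p = 0.174).

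**Figure D3:**
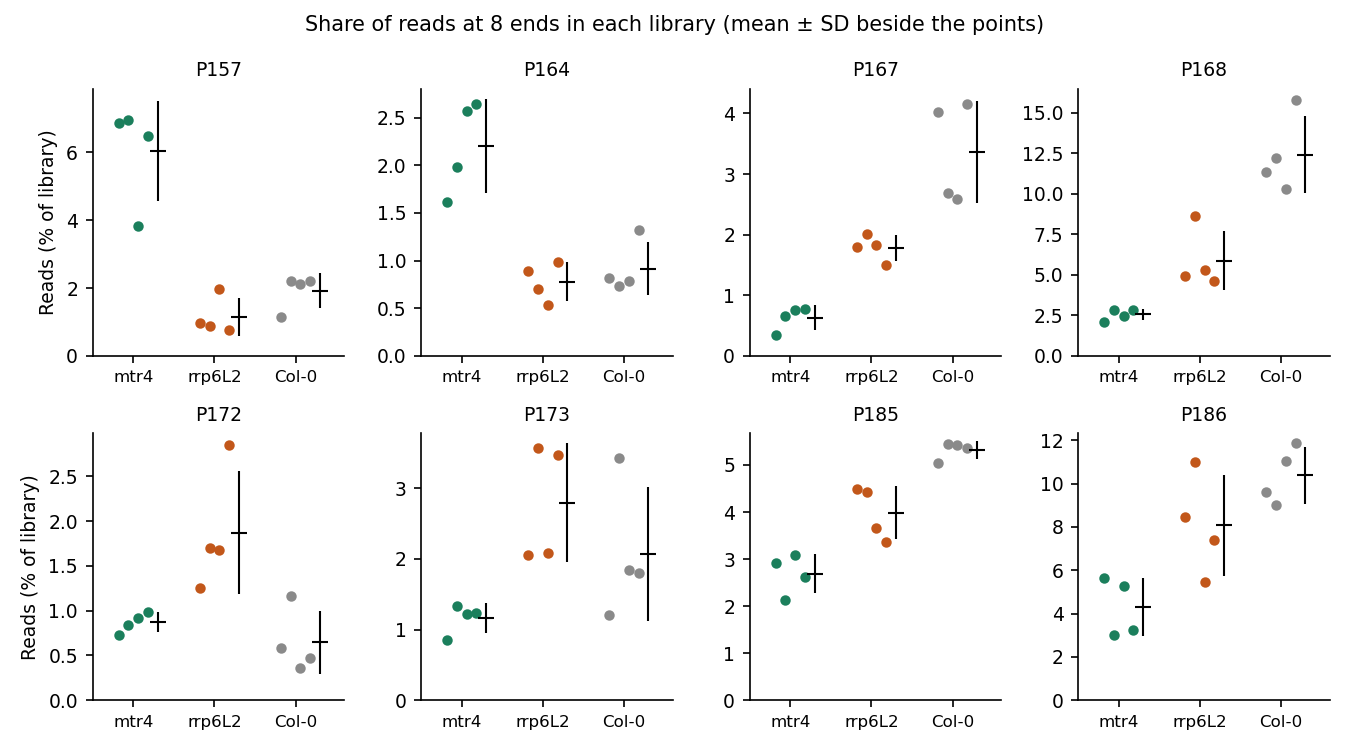
Share of reads at 8 ends in each library of the mtr4, rrp6L2 and Col-0 backgrounds, with the background on the x axis and the percentage of the reads of a library on the y axis. Points are libraries and the bar beside them is the mean ± SD of 4. The mtr4 and rrp6L2 points do not overlap at P157, P164, P167, P168, P172, P173 and P185, and they overlap at P186.

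The ends P161, P162, P176 and P177 did not pass the test between the backgrounds, and P160 passed it by a call that single libraries decided. P176 was the most frequent end of the *mtr4* background, with 13.3%, 9.80%, 13.3% and 10.2% of the reads, against 9.33%, 10.6%, 9.83% and 13.4% in the *rrp6L2* background. The log2 difference was 0.11 (95% CI −0.38 to 0.61, limma adjusted p = 0.763). P177 had 13.8%, 7.74%, 11.5% and 8.13% against 9.47%, 9.67%, 10.4% and 14.5% (95% CI of the log2 difference −0.66 to 0.44). Both ends were above the Col-0 means of 7% and 3.67% in all 8 libraries. P161 had 5.0%, 5.67%, 4.30% and 6.34% against 9.74%, 5.67%, 9.05% and 4.68% (log2 difference −0.39, 95% CI −0.94 to 0.16, limma adjusted p = 0.248). P162 had means of 1.11% and 1.16% (limma adjusted p = 0.836). At P160, the *mtr4* background libraries held 1.96% to 2.46%, while those of the *rrp6L2* background held 7.37% and 8.36% in replicate 1 and 2.27% and 2.55% in replicate 2. With all 8 libraries the log2 difference at P160 was −1.02 (limma adjusted p = 0.0397), and the call was lost without any of 6 single libraries (adjusted p up to 0.220).

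Summed into 11 classes that cover all reads, 4 classes did not overlap between the backgrounds. Ends from P140 to P156 made up 6.48% ± 1.74 (SD, n = 4) in the *mtr4* background against 3.51% ± 0.887, and ends above P187 4.91% ± 0.486 against 2.72% ± 0.753. Ends from P171 to P175 made up 7.67% ± 0.909 against 12% ± 2.41, and ends from P185 to P187 7.28% ± 1.75 against 12.3% ± 2.77. For each of these 4 classes the exact permutation test gave p = 0.0286, the smallest possible, and an adjusted p of 0.0786 over the 11 classes, which does not pass 0.05. The other 7 classes overlapped. Ends from P157 to P160 made up 14.4% against 10.4% and those from P176 to P177 22.0% against 21.8% (exact permutation test, p = 0.286 and 1.00). The effective number of ends, the exponential of the Shannon entropy of the profile, was 26.2 ± 2.67 in the *mtr4* and 22.7 ± 1.03 in the *rrp6L2* background (exact permutation test, p = 0.0857). It was 20.2 in the Col-0 background. The last encoded base did not separate the backgrounds, with A at 25.8% against 26.3% of the reads, C at 51.4% against 50.4%, G at 8.67% against 11.1% and T at 14.1% against 12.2% (smallest adjusted p 0.343, exact permutation test).

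With inactive Exo9 the means of the 2 RRP41Pi-Cat- libraries of each background were compared at the 21 called ends. The margins ranged from 0.0567% against 0.0552% at P156 to 12.6% against 17.0% at P186. P160 turned, with 0.800% in *mtr4 rrp41* RRP41Pi-Cat- against 0.518% in *rrp6L2 rrp41* RRP41Pi-Cat-. How many ends kept their sign is not given, since the ends that were not called were not counted. The profile distance with inactive Exo9 was 17.9. Only P161 passed the test of an interaction between background and Exo9 activity, 1.64% of the 61 ends tested (limma over 12 libraries, log2 −2.14, SE 0.50, adjusted p = 0.0406), with 11 ends at an unadjusted p under 0.05. Among these 11 were P157 and P156, where the difference was larger with active Exo9 (log2 1.64 and 1.49, limma adjusted p = 0.114 and 0.116). With inactive Exo9, P161 had 1.51% and 0.586% of the reads in *mtr4 rrp41* RRP41Pi-Cat- and 0.248% and 0.180% in *rrp6L2 rrp41* RRP41Pi-Cat-. The P161 mean was thus lower in the *mtr4* background with active Exo9, by a difference that did not pass the threshold, and higher with inactive Exo9. The interaction call was lost without any of 5 single libraries (adjusted p up to 0.0967) and with a pseudocount of 1 (log2 −1.07).

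The overall amount of added nucleotides did not distinguish the mutants. Tails of 2 to 30 nt were carried by 7.53%, 8.27%, 7.97% and 11.3% of the reads in the *mtr4* background and by 10.3%, 5.50%, 14.4% and 8.10% in the *rrp6L2* background. The *rrp6L2* values spread to both sides of the *mtr4* values (means 8.76% ± 1.71 and 9.56% ± 3.76, exact permutation test, p = 0.714), and the Col-0 background had 4.06% ± 1.13. Any added nucleotide was found in 20.5% ± 1.96 against 21.7% ± 4.98 (exact permutation test, p = 0.686) and in 11.2% ± 2.79 of the Col-0 background reads. A single added base can be a sequencing error or a polymorphism. The commonest of these in both mutants was an A after P177, on 39.3% ± 2.07 of the P177 reads in the *mtr4*, 36.3% ± 2.25 in the *rrp6L2* and 33.9% ± 8.77 in the Col-0 background.

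Tails were mainly A in both. A made up 91.6% ± 0.978 of the tail nucleotides in the *mtr4* background and 88.7% ± 3.84 in the *rrp6L2* background, G 4.34% against 4.74%, T 3.14% against 4.71% and C 0.947% against 1.83% (smallest adjusted p 0.229, exact permutation test over the 4 bases). The mean tail length was 6.52 nt ± 0.250 against 6.84 nt ± 1.27 (exact permutation test, p = 0.657), with median lengths of 5.25 and 4.75 nt averaged over libraries. AA was the most frequent tail in both backgrounds, on 13% ± 1.16 and 13.8% ± 3.42 of the tailed reads. It was followed by longer runs of A in both, while the Col-0 background also had AT and TA among its 5 most frequent tails. None of the 6 types of added nucleotides differed. Single A made up 8.78% against 8.88% of all reads and other single bases 2.98% against 3.23%, pure A tails of 2 to 5 nt 2.99% against 2.96%, pure A tails of 6 to 30 nt 2.49% against 2.31%, tails that mix A with other bases 3.04% against 3.95% and tails without A 0.233% against 0.336% (exact permutation test, adjusted p 0.943 or higher).

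The ends that carried the tails did differ. Of 23 ends with at least 30 reads in each library, 2 were tailed more often in the *mtr4* background, P185 and P186, and 6 less often, P157, P158, P160, P170, P172 and P173 (limma on log2 odds, adjusted p under 0.05), which is 8.7% and 26.1% of the ends tested. With a minimum of 10 reads, chosen after the data had been seen, 7 of 36 ends (19.4%) were tailed more often and 6 (16.7%) less often. The added ends were P167, P182, P183, P187 and P188 on the higher and P149 on the lower side, and P160 no longer passed. P167 had only 3 tailed reads, all in the *mtr4* background.

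Tails at P185 and P186 were close to absent in the *rrp6L2* background. At P185, 6.25%, 16.7%, 9.06% and 14.2% of the reads were tailed in the *mtr4* background, 115 reads in all. In the *rrp6L2* background 7 of 846 reads were tailed in *rrp6L2 rrp41* RRP41WT replicate 1 and none of 331, 400 and 263 in the others, which allows shares of up to 0.906%, 0.75% and 1.14%. The log2 odds ratio was 5.70 (SE 0.56, limma adjusted p = 8.36e-08). At P186, 4.54%, 4.56%, 5.50% and 8.46% of the reads were tailed against 0.161%, 0.101%, 0.0794% and 0% (0 of 579 reads, which allows up to 0.518%, log2 odds ratio 5.44, SE 0.42, limma adjusted p = 4.33e-09). The Col-0 background had 0.107% at P185 and 0.0539% at P186. The calls of a higher tailed share at P185 and P186 held under all 16 alternatives that were run, unlike the calls of a lower share of reads at these ends.

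The neighbouring ends are rare and pointed the same way. At P183, 40.7%, 57.1%, 35.0% and 67.4% of 27 to 117 reads were tailed in the *mtr4* background against 3.23%, 2.13%, 6.43% and 3.77% of 53 to 311 reads (log2 odds ratio 4.57, limma adjusted p = 6.92e-09). P187 had 60%, 40%, 50% and 55.6% against 0%, 5.0%, 12.9% and 0%, and P188 had 46.7%, 40%, 50% and 69.6% against 12.5%, 0%, 5.0% and 0%. In the Col-0 background, P187 was tailed on 28.9% and P188 on 23.2% of its few reads. P182 had 11 tailed of 80 reads against 0 of 109. Since P183 is itself an A of the reference, an A tail added after P182 is recorded at P183. At P167, only 3 of 258 reads were tailed in the *mtr4* background and 0 of 854 in the *rrp6L2* background. *mtr4* replicates 1 and 2 had 0 of 28 and 0 of 58, so the backgrounds overlapped. The P167 call thus depends on the small constant added to both counts before the odds were taken.

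**Figure D4:**
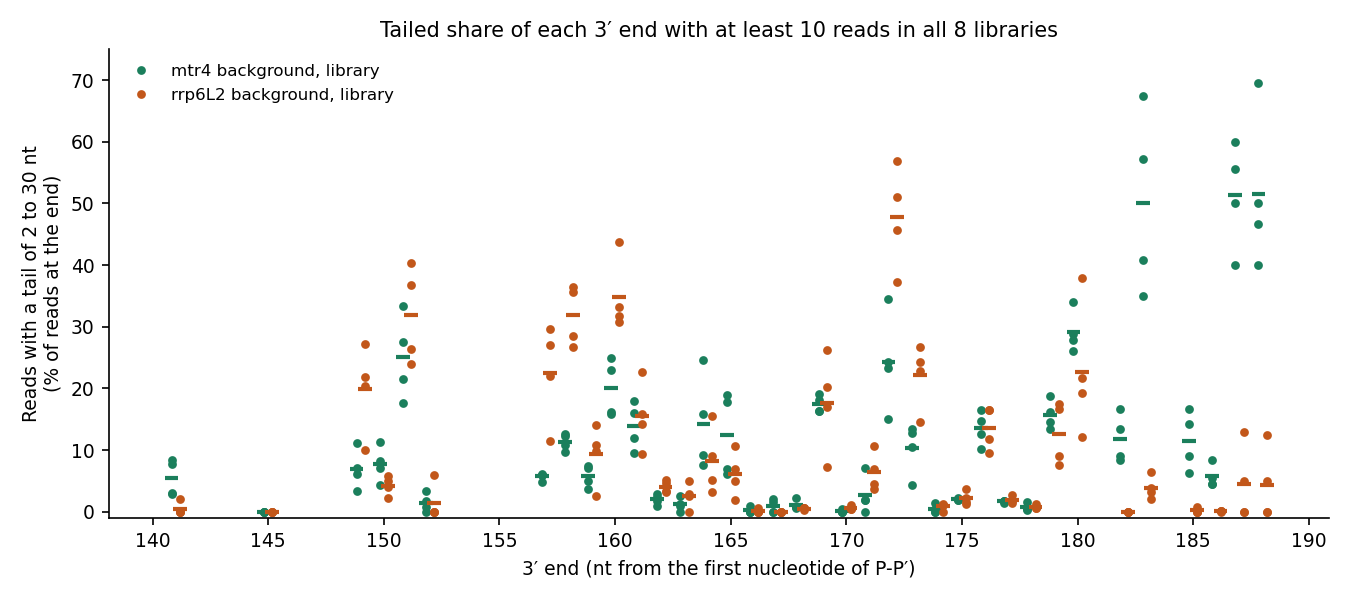
Tailed share of each 3′ end with at least 10 reads in all 8 libraries, with the 3′ end in nt on the x axis and the percentage of its reads with a tail of 2 to 30 nt on the y axis. Points are libraries and horizontal lines are means of 4. From P182 to P188, without P184, which has too few reads to be plotted, the mtr4 points lie above the rrp6L2 points. At P157, P158, P172 and P173 they lie below them.

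The ends tailed more often in the *rrp6L2* background were the short fragments around P158 and the ends P172 and P173. At P157, 6.02%, 5.91%, 6.15% and 4.75% of the reads were tailed in the *mtr4* background and 29.6%, 11.4%, 27.0% and 22.0% in the *rrp6L2* background (log2 odds ratio −2.20, SE 0.42, limma adjusted p = 0.000486). At P158, 12.3%, 9.69%, 10.8% and 12.7% were tailed against 35.6%, 26.7%, 36.5% and 28.5% (log2 odds ratio −1.85, SE 0.38, limma adjusted p = 0.000673). So P157 was both more frequent and less often tailed in the *mtr4* background, with no overlap in either measure. At P172, 15%, 23.3%, 24.3% and 34.4% were tailed against 51.1%, 37.3%, 56.8% and 45.7% (log2 odds ratio −1.53, limma adjusted p = 0.00989). At P173 it was 4.29%, 12.8%, 13.4% and 10.5% against 24.3%, 14.6%, 26.8% and 22.8% (log2 odds ratio −1.33, limma adjusted p = 0.0259). These ends did not overlap, but P173 lost its call without any of 4 single libraries (adjusted p up to 0.0851). P160 was tailed on 15.8% to 25% of its reads in the *mtr4* and 30.7% to 43.8% in the *rrp6L2* background (limma adjusted p = 0.0355) and lost its call without any of 5 (adjusted p up to 0.115). At P170 the call rests on 2 of 1298 and 6 of 1185 tailed reads. In the Col-0 background, 9.99% of P157 reads, 17.1% of P158 reads, 15% of P172 reads and 3.08% of P173 reads were tailed. Since P172 is itself an A of the reference, an A tail added after P171 is recorded at P172.

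P161, P169 and P176, which carried many tails, showed no difference in their tailed share that passed the threshold. P176 was tailed on 13.5% ± 2.76 (SD, n = 4) against 13.6% ± 3.51 of its reads (95% CI of the log2 odds ratio −0.84 to 0.83), P161 on 13.8% ± 3.78 against 15.5% ± 5.52 (95% CI −1.06 to 0.72) and P169 on 17.5% ± 1.37 against 17.7% ± 7.91 (95% CI −0.84 to 1.06). P176 ends in an A of the reference, so here too an A tail added after P175 can be recorded 1 nt too far 3′. P168 and P169 are both A, so A tails added after P167 or P168 are recorded at P169.

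Counted over all tails, P157 to P160 held 16.0% ± 2.49 (SD, n = 4) of the tails in the *mtr4* background and 31.9% ± 11.5 in the *rrp6L2* background, and P171 to P175 held 4.80% ± 1.25 against 18.9% ± 7.83. P178 to P184 held 12.2% ± 2.30 against 3.89% ± 1.32, P185 to P187 7.99% ± 0.885 against 0.224% ± 0.191, and ends above P187 8.27% ± 2.62 against 1.26% ± 0.598. None of these 5 classes overlapped, and neither did P163 to P167, with 4.97% ± 2.45 against 1.25% ± 0.262. The rest of the 11 classes overlapped. The class shares were described and not tested, since they combine how frequent an end is with how often it is tailed. The mean tail length per library did not overlap between the backgrounds in 4 of the 11 classes, again as a description without a test. Tails were longer in the *rrp6L2* background in 3 of these, with 5.85 to 6.77 nt in the *mtr4* against 7.35 to 9.85 nt in the *rrp6L2* background at P157 to P160, 4.62 to 5.38 nt against 6.12 to 7.12 nt at P168 to P170 and 4.01 to 6.63 nt against 7.25 to 10 nt above P187. They were shorter at P171 to P175, with 5.67 to 6.61 nt in the *mtr4* against 4.66 to 5.31 nt in the *rrp6L2* background. The *rrp6L2* values above P187 rest on 47 tailed reads, as few as 7 in a library, and those at P168 to P170 on as few as 25. Of the 256 tailed *mtr4* reads above P187, 11, 47, 2 and 26 ended from P470 to P482, where the *rrp6L2* background had no tailed reads.

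The most frequent tailed molecules show where tails were recorded. The last 20 encoded nt are written in lower case and the most frequent tail in capitals, first for P183, P185, P186 and P187 in the *mtr4* background and then for P157, P160, P172 and P173 in the *rrp6L2* background.
mtr4 background P183: atcgaactacctaccacctaAAAAAAAAAA
mtr4 background P185: cgaactacctaccacctatcAAAAAAAAA
mtr4 background P186: gaactacctaccacctatccAAAAAAAAA
mtr4 background P187: aactacctaccacctatcctAAAAAAAA
rrp6L2 background P157: agtgttcgtaggctccatgcAAAAAAA
rrp6L2 background P160: gttcgtaggctccatgctcgAA
rrp6L2 background P172: catgctcgcgcatcgaactaAAA
rrp6L2 background P173: atgctcgcgcatcgaactacAA
These tails were on 11 of 103, 25 of 115, 18 of 98 and 12 of 58 tailed reads in the *mtr4* background and on 16 of 166, 91 of 1154, 86 of 427 and 79 of 275 in the *rrp6L2* background.

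Ends from P182 to P188 were then pooled in all 26 libraries, a range chosen after the data had been seen and therefore not tested. Of the reads that ended there, 11%, 16.0%, 13.9% and 24.7% were tailed in the *mtr4* background with active Exo9 and 0.962%, 0.311%, 1.71% and 0.315% in the *rrp6L2* background. With inactive Exo9 it was 11.1% and 27.1% in *mtr4 rrp41* RRP41Pi-Cat- and 2.82% and 0.944% in *rrp6L2 rrp41* RRP41Pi-Cat-. The 6 *mtr4* libraries ranged from 11% to 27.1% and the other 20 libraries of the series from 0.306% to 5.86%, without overlap. The tails at these ends were pure A on 330 of 538 reads in the *mtr4* background, 61.3%.

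**Figure D5:**
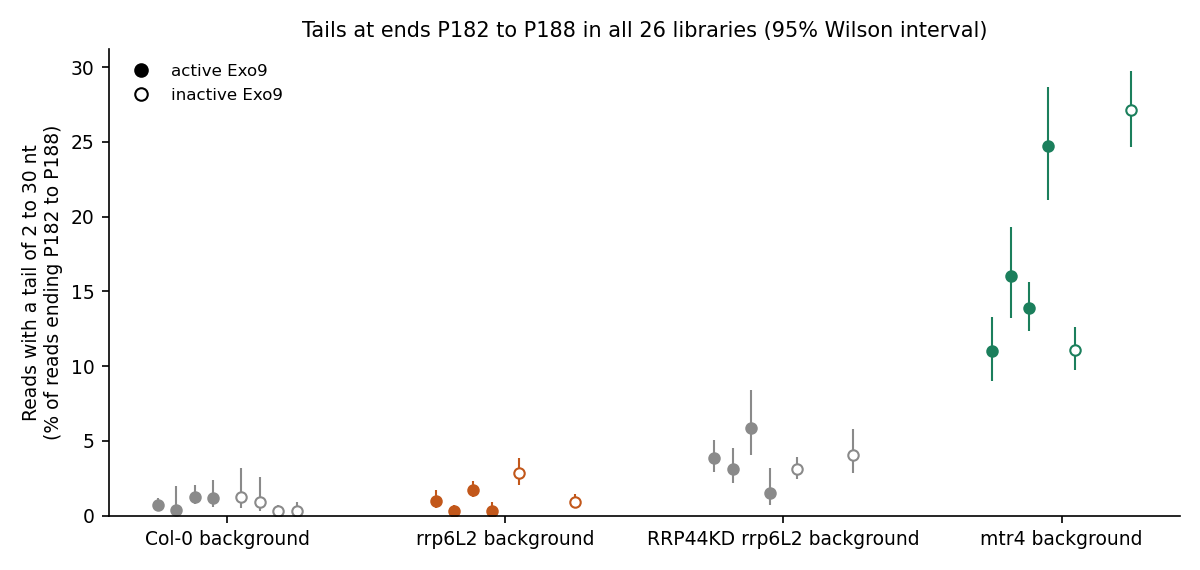
Percentage of the reads ending at P182 to P188 that carry a tail of 2 to 30 nt (y axis) in the 26 libraries, grouped by background on the x axis. Filled points have active and open points inactive Exo9, and bars are 95% Wilson intervals of single libraries. The 6 mtr4 libraries lie between 11% and 27.1%, above the 20 others, which reach at most 5.86%.

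From P183 to P188, ends with a longer encoded part had shorter median tails. In the *mtr4* background the median tail was 10 nt at P183 and P184, 9 nt at P185 and P186, 8 nt at P187 and 7 nt at P188, so that encoded part and tail added up to a median of 194 nt at P184 and P185 and 195 nt at P186, P187 and P188. Over the 538 tailed reads that ended from P182 to P188 the median total was 194 nt, and the range between the quartiles spanned 4 lengths and held 333 reads, 61.9% (95% Wilson CI 57.7 to 65.9). The range was set on these reads, so this share describes how narrow it is. It was 67.8%, 59.1%, 58.4% and 66.4% in the 4 libraries and 55.4% and 63.9% in *mtr4 rrp41* RRP41Pi-Cat-, so it varied little. The quartiles lay at 8 and 10 nt for tails at P185, against 4 and 14 nt for the 1154 tails at P160 in the *rrp6L2* background. Narrow quartiles were not particular to P185. They lay at 3 and 5 nt at P173 in the *mtr4* background and at 2 and 5 nt for 705 tails at P176 in the *rrp6L2* background. In the *rrp6L2* background only 63 reads from P182 to P188 were tailed, of which 16 had a total in the same range, 25.4% (95% Wilson CI 16.3 to 37.3). These 63 reads had the same median total of 194 nt, with quartiles at 190 and 197 nt. *rrp6L2 rrp41* RRP41WT replicate 1 held 44 of them. In *RRP44KD rrp6L2* and *RRP44KD rrp6L2 rrp41* RRP41WT the share was 34 of 111, 30.6% (95% Wilson CI 22.8 to 39.7). Setting the range on the *mtr4* reads favours their own share over these. P182 did not follow, with a median tail of 5 nt on 11 reads and a median total below that of P183, and 4 nt on 10 reads with inactive Exo9. This pattern was noticed in these reads and was not tested, and the intervals cover counting error only. Reads were removed by the second nucleotide of their tail, and longer tails were kept only with stretches of AAA or TTT. The part of this handling in the tail lengths and tailed shares at P182 to P188 was not tested, and the table does not show whether the narrow range of totals is a property of the RNA or of the reads.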

How the data were processed

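3′RACE-seq of the 5′ ETS was analysed from a table in which the authors deposited, for each deduplicated read, the encoded sequence, its 3′ end position and any added nucleotides. These are not scores or other normalized values, and no normalization was applied by the authors. In their methods, an adapter with random nucleotides was ligated to total RNA, RNA of a limited size range was excised, reads identical in insert and random nucleotides were collapsed, and reads were mapped by custom python scripts to the rRNA repeat, with 3′ nucleotides trimmed stepwise until they matched. Reads whose second trimmed nucleotide matched the reference were removed, and long tails were kept only with stretches of AAA or TTT. In the deposited table the last 20 nt before a tail match in 100% of the reads and the longest tail has 30 nt. A genome build was not used by the authors, and coordinates are own matches to TAIR10.1 (RefSeq). The number of columns that belong to other samples was 0.

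The percentage of all reads of a library was computed for each end from P140 to P200 and compared by limma 3.58.1 in R 4.3.3 on log2(percent + 0.1), which understates the change of rare ends. Tailed shares at an end were compared by limma on log2 odds for ends with at least 30 reads per library. Single values were compared by two-sided exact permutation tests of 4 against 4 libraries. p-values were Benjamini-Hochberg adjusted with a threshold of 0.05. Calculations used pandas 2.3.3, numpy 2.4.6 and scipy 1.17.1 under Python 3.11.15, with plots by matplotlib 3.10.9. The fits were also run on simulated data in which each library varied independently. This does not cover variation that the 2 lines of a background share. Reads per library ranged from 1621 to 23152 (median 7592), and Wilson intervals and floors of 3 reads cover counting error only.

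Ends named in the text are P161, P168, P176 and P186, their neighbours, and up to 10 per direction with the largest mean difference among ends past the threshold without overlap. P154, P155, P183 and the ends singled out for their tails were named after their values were seen. Members, ends and lists were chosen with earlier results of these data known. Alternatives were other denominators, reads without added nucleotides, reads of either base at position 137, tails moved back over reference A, thinning to 6171 reads, other pseudocounts and minimums, RRP41 source or replicate number as a term, exact tests, and leaving out each library. The 5.8S rRNA libraries of the study were not used here.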

Additional observations from a re-analysis of the deposited data

Results flagged for a closer look

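In groups of 4 libraries, a library was singled out where it stood apart from the other 3 by most of the range of its group. Of 110 groups examined this occurred in 6, and chance gives about 1 in 20. In the *mtr4* background, *mtr4 rrp41* RRP41WT replicate 1 had the lowest P157 share, 3.84%, and *mtr4 rrp41* RRP41WT replicate 2 had a median tail length of 6 nt, above the other 3 libraries. In the *rrp6L2* background, *rrp6L2* replicate 2 had the highest share of ends from P168 to P170, 14.3%, and the lowest P162 share, 0.952%. *rrp6L2 rrp41* RRP41WT replicate 2 had the highest share of ends P176 and P177, 27.9%, and *rrp6L2 rrp41* RRP41WT replicate 1 the lowest share of reads ending in C, 47.4%. The difference between the backgrounds at P161 was singled out because it differed between active and inactive Exo9, by −2.14 on the log2 scale.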

How the results depend on the processing

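Of 61 ends, 21 passed the threshold. In reads with T137C, which can be recorded at 44 ends only, 11 passed, and 7 of the 21 calls could not be tested. Of all 61 ends, 12 passed with the spread estimated from all 26 libraries, 0 by exact tests and 15 to 21 without 1 library. Over 6 pairs of genotypes, the replicate differences correlated by −0.425 to 0.587. The 2 pairs over 0.1 were the 2 lines of the same background, with 0.425 for *mtr4* and 0.587 for *rrp6L2*. Replicates 1 and 2 lay 15.2 and 17.2 apart in these backgrounds, and the 2 lines 6.17 and 10.8. The lines of a background thus shared replicate variation, while the tests treat its 4 libraries as independent. Across the backgrounds all correlations were negative, so replicate numbers were not shown to pair those libraries. With the replicate number as a block, 21 ends passed, and the profile distance stayed 20.2 with an exact p of 0.0556, the smallest that 36 relabelings allow. Without 1 library it was 19.7 to 22.3. With both neighbours added, the log2 difference turned to −0.24 at P169, −0.075 at P176, 0.00385 at P177 and −0.57 at P184, and P162 turned to 0.059 in reads with T137C. P177 ranged from −0.27 to 0.028 without 1 library.

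Of 23 ends, 8 differed in tailed share, against 5 with at least 100 reads, 5 in reads with T137C, 13 of 36 with at least 10 reads and 6 to 9 without 1 library. P170 turned to 0.00285 in reads with T137C. The Exo9 interaction passed at 1 end, against 0 with the RRP41 source as a term, 5 with a pseudocount of 1, 4 among ends with a mean share of at least 0.5%, 3 in reads without added nucleotides and 0 to 2 without 1 library.

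Differences that passed no test were least stable. Without 1 library, the effective number of ends differed by 2.64 to 4.74, the T137C share by −8.15 to 0.22 percentage points, tails of 2 to 30 nt by −2.15 to 0.81, those of 1 to 30 nt by −3.33 to 0.71 and mean tail length by −0.82 to 0.15 nt, which was 0.042 nt in reads with the reference base. The same ranges were −1.54 to 2.23 for ends P176 and P177, −0.17 to 0.85 for P178 to P184, −1.38 to 0.37 for a last base A, −0.13 to 1.49 for C, −0.63 to 0.59 for single A, −0.33 to 0.38 for A tails of 2 to 5 nt and −0.34 to 0.81 for those of 6 to 30 nt. With P140 to P200 as denominator, single A turned to 0.13 and A tails of 2 to 5 nt to −0.10. In reads with the reference base the latter were −0.16 and a last base A 0.94. P178 to P184 turned to −0.87 in reads without added nucleotides. The difference in median tail length was 0 with A tails moved back and −0.13 nt in reads with T137C. The cause was not tested. Of 973 values of single ends or classes under an alternative, 837 kept their direction and side of the threshold, 96 fell short of it, 5 passed it newly and 35 turned. Ends with shares near the floor of 3 reads and tailed shares on few reads are limited by depth.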

Other observations

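Reads that end at or near P′ were few, and most were in *mtr4* libraries. Ends from P470 to P482, a range chosen after the values were seen, made up 31, 124, 3 and 66 reads in the 4 *mtr4* background libraries with active Exo9, which is 0.376%, 1.42%, 0.0182% and 1.07% of their reads. The *rrp6L2* background libraries had 0, 0, 1 and 3 such reads and the Col-0 background libraries 0, 0, 0 and 2. *mtr4 rrp41* RRP41WT replicate 1, the deepest library of its background, thus had as few of them as *rrp6L2 rrp41* RRP41WT replicate 2. Of the other 14 libraries, those of *mtr4 rrp41* RRP41Pi-Cat- had 3 and 34 such reads, *RRP44KD rrp6L2* replicate 2 had 22 (0.203%) and *rrp41* RRP41Pi- replicate 2 had 7 (0.427%), and the remaining 10 had at most 1. The most frequent of these ends was P481, with 16, 79, 3 and 40 reads, which lies 82 nt before the first nucleotide of 18S rRNA. The surrounding nucleotides from P462 to P482, at chr3:14197576-14197596 on the plus strand of TAIR10.1, are shown with P481, the end at the P′ site, in capitals.
P462 to P482: tccgtccttcgggcaaaagAt
Of the reads in this range, 11 of 31, 47 of 124, 2 of 3 and 26 of 66 carried a tail of 2 to 30 nt in the *mtr4* background. These fragments are longer than the RNA that the methods state was excised for the libraries, so their share among the reads is not their share in the RNA.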
